A study of Rattus norvegicus with 3 samples.

Results

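Single-nucleus RNA sequencing of the rat heart apex was used to describe 9 genes of the cardiomyocyte's response to mechanical load. They were the muscle ankyrin repeat genes Ankrd1, Ankrd2 and Ankrd23, the Xin genes Xirp1 and Xirp2, the LIM domain genes Csrp3, Fhl1 and Fhl2, and Nrap. The 9 symbols were looked up by name among the 22250 genes of the files, and each matched 1 gene. The lookup used no measured values, but the members were chosen with earlier results of these data known. The data covered 1 library per genotype from rats at 12 months of age. WT were wild-type rats. BMD rats (R-BMDdel45-47) carried a CRISPR/Cas9 deletion of exons 45 to 47 of Dmd, made in Sprague Dawley embryos, which keeps the reading frame. DMD rats (R-DMDdel52) lacked exon 52 of Dmd. In both lines the deletion was in the germline and so was not limited to cardiomyocytes. Nuclei were sorted before capture, and the number of animals behind a library was not given in the sources used here. No test between genotypes could be made, and the 95% intervals below cover counting error only, not the spread between animals.

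Cardiomyocytes sense stretch at the Z-disc, at the titin filament and at the intercalated disc, where cells are coupled end to end. The ankyrin repeat proteins bind the N2A region of titin and can move to the nucleus, and Ankrd1 is a known marker of overload of the ventricle. Xin proteins bind actin at the intercalated disc, N-RAP anchors actin filaments at the same place, and LIM proteins such as MLP, the product of Csrp3, bridge the Z-disc, titin and signalling proteins. Dystrophin, the product of Dmd, links the cytoskeleton to the matrix and is thought to protect the membrane during contraction.

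The values are counts of unique molecular identifiers (UMIs, tags that mark single RNA molecules), summed over the nuclei of a cell type and library and given as counts per 1000000 UMIs of that sum (CPM). The libraries held from 19215994 to 21609238 UMIs, and 24664 barcodes were taken as nuclei, of which from 12 to 20 were shared by a pair of libraries. There were 2075 cardiomyocyte-like nuclei from the WT library, 1605 from BMD and 1278 from DMD, with median depths of 2741, 3666 and 2834 UMIs. Nuclei of 2 clusters bore this name, and no member was used to find them. The larger one raised 11 of 11 cardiomyocyte markers with a matching symbol, and the smaller one 7 of 11, Tnnt2 and Tnni3 among them but not Actn2. The smaller one, led by Gadd45g, Pgam2 and Nppb, was rich in mitochondrial UMIs (11.1% to 15.3%) and made up 2.99% of the cardiomyocyte-like nuclei of WT, but 7.29% of those of BMD and 18.2% of those of DMD. Where a member's ratio moved beyond its counting interval without this cluster, both values are given. In the same nuclei the fibroblast markers summed to 206 CPM for WT, 154 for BMD and 854 for DMD, from 9 to 10 of 11 markers, with Pcdh9 at 0 in each. The summed endothelial markers, all 11 detected, were 129, 192 and 348 CPM. The monocyte and neutrophil markers summed to 18.7, 18.0 and 220 CPM, from 4 to 5 of 6 markers, with Ly6c at 0 in each. The share of mitochondrial UMIs was 0.585%, 1.14% and 1.54%. The part of these differences in the results was not tested. In these nuclei Dmd itself stood at 16370 CPM with WT lowest, at 20321 with BMD highest and at 18598 in DMD, but counts per gene do not show which exons are present, so this does not check the labels.

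Most of the stretch genes were higher in the cardiomyocyte-like nuclei of both mutants, with Xirp2 furthest from WT in BMD and Ankrd1 in DMD. In BMD, 8 of the 9 log2 ratios to WT were above 0, beside 43.9% of all genes with at least 50 UMIs. In DMD 7 of 9 were, beside 51.0%, and Ankrd2 among them had an interval that included 0. Xirp1 in BMD was at 0.03 without the smaller cluster. Fhl2 was the member that was lower in both. At a fold of 1.5 or more, 5 members were higher in BMD (Ankrd1, Ankrd2, Ankrd23, Xirp2 and Csrp3), where 928 of the 10315 genes with at least 50 UMIs, or 9.0%, passed the same fold. In DMD, 4 members were higher (Ankrd1, Ankrd23, Xirp2 and Fhl1), against 14.9% of all genes. Of these DMD values, Xirp2 was under the fold, at a log2 ratio of 0.53, with the mean of CPM over nuclei. Ankrd23 was at 0.57 in 1 random draw of nuclei thinned to 1000 UMIs, but above the fold in another. Of the BMD values, Csrp3 was at 0.52 with the mean of CPM, 0.44 with thinned nuclei and 0.40 without the smaller cluster. Ankrd2 in BMD was at 0.50 with thinned nuclei. No member was lower by that fold in either mutant, against 9.45% of genes in BMD and 9.10% in DMD. The median log2 ratio of the 9 members was 0.68 in BMD beside -0.05 for all genes, and 0.44 in DMD beside 0.01 for all genes. In each mutant this median is the ratio of Csrp3. Without the smaller cluster the medians were 0.56 in BMD and 0.54 in DMD, beside -0.08 and -0.03 for all genes. As the members were chosen with earlier results known, these contrasts with all genes describe them and are no test. All 9 members passed the minimum of 50 UMIs over the 3 libraries, Ankrd2 with 66. On the log2 scale the fold of 1.5 is 0.58, and nearest to it lay Fhl1 in BMD, just outside at 0.56, and Fhl1 in DMD, just inside at 0.65. Both comparisons share the WT library, whose counts were taken from a combined file whose header names another version of the counting software. With BMD and DMD read from the combined file too, as thinned counts, the same 5 and 4 members passed the fold. The medians were then 0.68 and 0.45. The version that first counted WT is not known, so a difference in counting and genotype cannot be told apart.

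**Figure D1:**
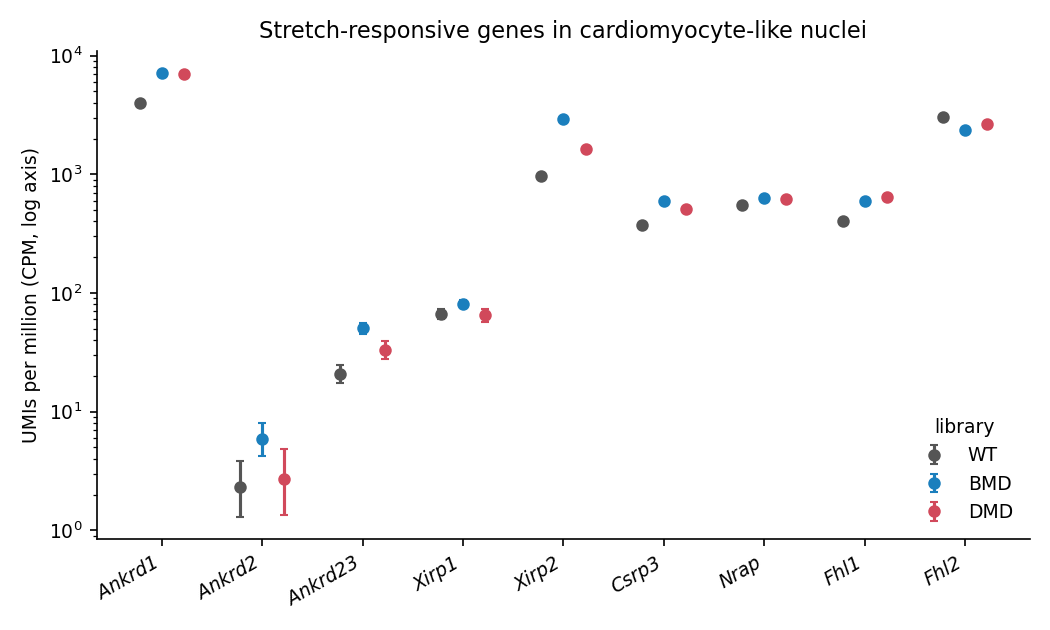
Level of each stretch-responsive gene in cardiomyocyte-like nuclei. The y axis is CPM on a log axis, points are the 3 libraries (WT grey, BMD blue, DMD red) and bars are exact Poisson 95% intervals. The Xirp2 point of BMD, at 2917 CPM, lies above those of DMD (1617) and WT (961), while Fhl2 is highest in WT.

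Among the ankyrin repeat genes, Ankrd1 (ENSRNOG00000018598) had 3949 CPM in WT, 7071 in BMD and 6979 in DMD. Both mutants were above WT, and the interval of the ratio between them included 0. BMD was above WT by a log2 ratio of 0.84 (0.82 to 0.86) and DMD by 0.82 (0.80 to 0.85), and from DMD to BMD it was -0.02 (-0.04 to 0.00). Without the smaller cluster the ratios were 0.77 and 0.88.

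Ankrd23 (ENSRNOG00000016151), whose protein DARP was named for its link with diabetes in muscle, had 20.9 CPM (134 UMIs) in WT, against 50.7 CPM (343 UMIs) in BMD and 33.3 CPM (136 UMIs) in DMD. It was highest in BMD, with DMD between BMD and WT. Against WT, BMD had a log2 ratio of 1.28 (0.99 to 1.58) and DMD one of 0.68 (0.32 to 1.03), and from DMD to BMD it was -0.60 (-0.90 to -0.32). Thinning nuclei to 1000 UMIs brought the BMD ratio down to 0.78, under its counting interval, and left DMD at 0.57. The order of the mutants held, but the gap between them was smaller. The RefSeq promoter of Ankrd23 is shown because it was the ankyrin repeat gene past the fold in both mutants for which a promoter sequence was at hand. The 250 bases before its start (GRCr8, chr9:46274511-46274760, minus strand) hold 1 match to CATTCC, in capitals, the M-CAT motif that TEAD factors bind.
Ankrd23: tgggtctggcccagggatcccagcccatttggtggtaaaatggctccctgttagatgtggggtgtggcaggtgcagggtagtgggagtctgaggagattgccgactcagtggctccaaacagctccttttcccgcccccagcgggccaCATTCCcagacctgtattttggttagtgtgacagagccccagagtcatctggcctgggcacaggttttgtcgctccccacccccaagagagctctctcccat
The match lies from 102 to 97 bases before the start. A match to CATTCC on either strand was found in 12.1% of the 33469 RefSeq promoter windows of this length. It describes the sequence and does not show that the site is used.

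Ankrd2 (ENSRNOG00000013840), which is best known from slow skeletal muscle, was at the edge of detection with 15 UMIs from WT, 40 from BMD and 11 from DMD. These sums gave 2.34, 5.91 and 2.69 CPM. The log2 ratio was 1.31 in BMD (0.45 to 2.30), above WT beyond counting error. In 1 random draw of nuclei thinned to 1000 UMIs the BMD ratio was 0.50, near the low end of that interval and from few UMIs. In DMD the ratio was 0.22 (-1.06 to 1.43), and neither a rise nor a fall was detectable at this depth. In BMD the 40 UMIs came from 30 of 1605 nuclei.

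The Xin genes differed from each other. Xirp2 (ENSRNOG00000034258) had 961 CPM (6170 UMIs) in WT, against 2917 CPM (19724 UMIs) in BMD and 1617 CPM (6600 UMIs) in DMD. It was highest in BMD, and DMD lay between. For BMD the log2 ratio to WT was 1.60 (1.56 to 1.64), and for DMD 0.75 (0.70 to 0.80), or 3.04-fold and 1.68-fold. It ranked 124th in BMD and 1162nd in DMD from the top of 10315 genes. From DMD to BMD the log2 ratio was -0.85 (-0.89 to -0.81). At least 1.5-fold lower in DMD than in BMD were 3 members, Xirp2, Ankrd23 and Ankrd2, against 4.70% of all genes. None was higher by that fold, against 11.9%. Ankrd23, at -0.60, was only just past the fold, and Ankrd2, with 11 and 40 UMIs, was at -1.09 (-2.25 to -0.14). These ratios between the mutants were not recomputed under other settings.

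Its paralog Xirp1 (ENSRNOG00000037085) had 66.9 CPM in WT, 80.7 in BMD and 64.7 in DMD. Only BMD stood apart, by a log2 ratio of 0.27 (0.09 to 0.46), and DMD was at -0.05 (-0.28 to 0.17). Without the smaller cluster the ratios were 0.03 and 0.02. In BMD, 146 of the 546 Xirp1 UMIs lay in that cluster, which held 117 of the 1605 nuclei. The 2 promoters are set side by side because the genes are paralogs that differed in the mutants. In each, 1 match to CTAAAAATA is in capitals, a form of the motif bound by MEF2 factors. The windows are GRCr8, chr3:72533936-72534185, plus strand, for Xirp2 and chr8:128635012-128635261, minus strand, for the first of the 3 RefSeq starts of Xirp1.
Xirp2: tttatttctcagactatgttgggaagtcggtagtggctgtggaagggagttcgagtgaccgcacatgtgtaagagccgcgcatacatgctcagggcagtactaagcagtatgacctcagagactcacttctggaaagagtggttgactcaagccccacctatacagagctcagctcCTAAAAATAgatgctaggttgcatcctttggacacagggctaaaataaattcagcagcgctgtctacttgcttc
Xirp1: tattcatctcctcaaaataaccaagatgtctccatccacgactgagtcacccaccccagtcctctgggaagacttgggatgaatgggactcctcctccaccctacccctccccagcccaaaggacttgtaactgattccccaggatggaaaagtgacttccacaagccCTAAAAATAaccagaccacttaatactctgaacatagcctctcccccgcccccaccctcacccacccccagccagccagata
The match lies from 74 to 66 bases before the start in Xirp2 and from 82 to 74 bases in Xirp1. On either strand, CTAAAAATA was found in 0.442% of the 33469 windows. Both Xin genes carry these letters at a like distance from the start. The third start of Xirp1 holds none of the 4 motifs searched, which were CTAAAAATA, CATTCC, the CArG box bound by SRF and, on the plus strand, TATAAA. No motif match overlapped another.

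**Figure D2:**
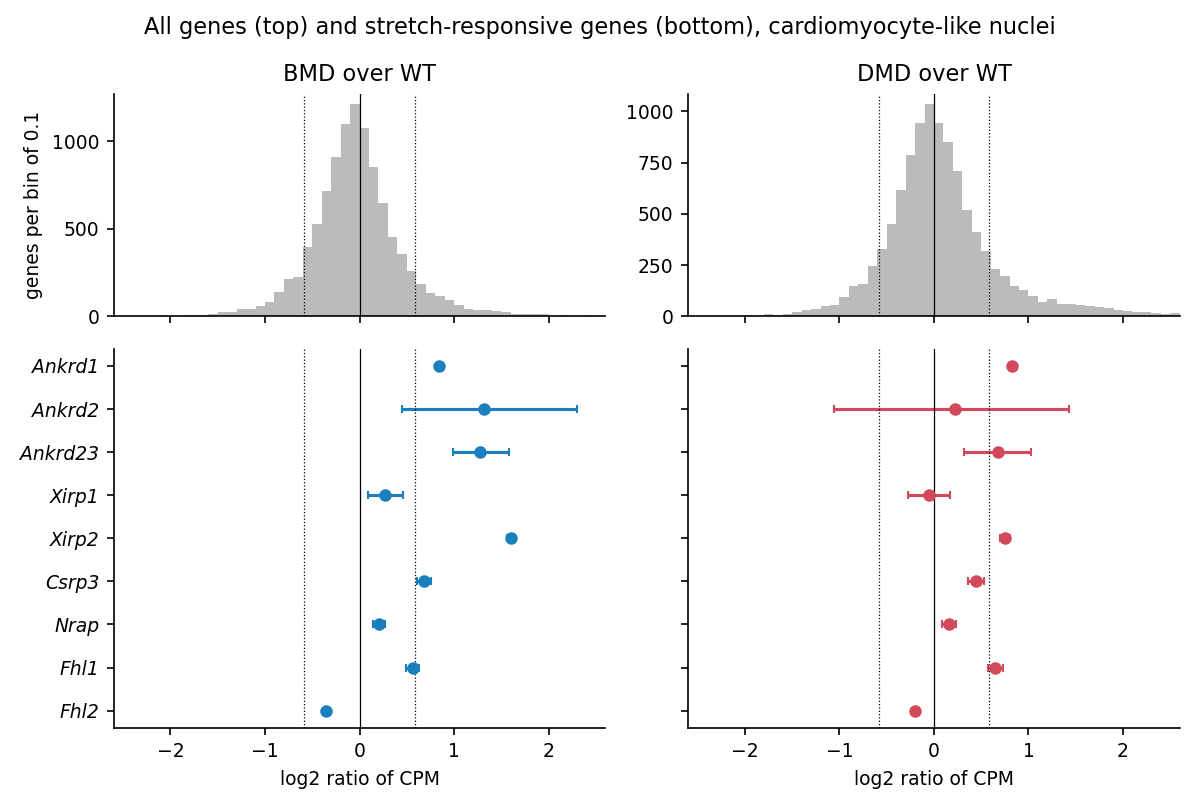
Log2 ratios to WT in cardiomyocyte-like nuclei, for BMD on the left and DMD on the right. Grey bars count the 10315 genes per bin of 0.1, points are the 9 members with exact 95% counting intervals, and dotted lines mark a fold of 1.5. In BMD 5 points lie right of the upper dotted line and in DMD 4, and Fhl2 is left of 0 in both.

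Of the LIM genes, Csrp3 (ENSRNOG00000014327), which encodes the muscle LIM protein of the Z-disc, had 373 CPM in WT, 599 in BMD and 507 in DMD. Both mutants were above WT, BMD further. BMD had a log2 ratio to WT of 0.68 (0.61 to 0.76), and DMD one of 0.44 (0.36 to 0.53). Without the smaller cluster it was 0.40 in BMD and 0.54 in DMD, so that BMD no longer passed the fold of 1.5 and the order of the mutants turned. That cluster held 1280 of the 4053 Csrp3 UMIs in BMD, 305 of 2396 in WT and 248 of 2070 in DMD. In BMD, 1 nucleus alone held 239 Csrp3 UMIs. The counting interval treats UMIs as independent, so it does not cover such a nucleus. The BMD ratio was also under the fold with the mean of CPM over nuclei (0.52) and with nuclei thinned to 1000 UMIs (0.44).

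Fhl1 (ENSRNOG00000000875), a LIM protein that binds titin, had 407 CPM in WT, 601 in BMD and 639 in DMD. The mutants were both above WT and close to each other. On the log2 scale BMD was higher by 0.56 (0.49 to 0.63) and DMD by 0.65 (0.57 to 0.73), and from DMD to BMD it was 0.09 (0.02 to 0.16). Under edgeR's TMM scaling, the ratio in BMD was 0.61 and passed the fold of 1.5.

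Fhl2 (ENSRNOG00000016866), the heart-enriched relative of Fhl1, had 3033 CPM in WT, 2377 in BMD and 2646 in DMD. WT was highest. For BMD the log2 ratio to WT was -0.35 (-0.38 to -0.32), for DMD -0.20 (-0.23 to -0.16), and each stayed below 0 under all 13 alternatives. Without the smaller cluster the ratios were -0.32 and -0.14. The promoter at the first of its 2 RefSeq starts is shown because Fhl2 was the member lower in both mutants (GRCr8, chr9:52954541-52954790, minus strand). Capitals mark a CArG box from 95 to 86 and CATTCC from 36 to 31 bases before the start.
Fhl2: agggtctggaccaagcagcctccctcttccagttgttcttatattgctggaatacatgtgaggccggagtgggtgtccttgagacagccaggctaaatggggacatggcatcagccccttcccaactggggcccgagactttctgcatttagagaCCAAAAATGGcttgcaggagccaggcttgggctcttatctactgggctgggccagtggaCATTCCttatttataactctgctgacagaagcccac
A CArG box was found in 501 of the 33469 windows. The window of the second Fhl2 start and that of the first Fhl1 start hold one as well.

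Nrap (ENSRNOG00000016714) had 551 CPM in WT, 635 in BMD and 615 in DMD. Against WT, the log2 ratio of BMD was 0.20 (0.14 to 0.27) and that of DMD 0.16 (0.09 to 0.23). Both mutants were a little above WT, and from DMD to BMD the ratio was -0.04 (-0.12 to 0.03). With all nuclei of a library in place of the cardiomyocyte-like ones, Nrap was at -0.10 in DMD, where cardiomyocyte-like nuclei made up 16.2% of nuclei against 20.8% in WT.

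For Ankrd1, Xirp2 and Fhl2 the share of nuclei with at least 1 UMI was compared as well. Each nucleus was thinned to 500 UMIs so that depth could not set the share. Ankrd1 was then seen in 72.3% of the cardiomyocyte-like nuclei of WT (exact Clopper-Pearson, 70.4 to 74.3), while BMD reached 89.3% (87.7 to 90.8) and DMD 88.9% (87.0 to 90.6). In endothelial-like nuclei, with median depths from 827 to 1105 UMIs, the thinned shares were 7.34%, 13.9% and 10.8%. Before thinning, cardiomyocyte-like shares were 93.1%, 98.3% and 96.9%, and endothelial-like shares 10.99%, 26.9% and 20.6%.

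Among thinned cardiomyocyte-like nuclei, Xirp2 was seen in 28.9% of those of WT (26.9 to 30.9), while BMD reached 45.9% (43.4 to 48.3) and DMD 31.7% (29.1 to 34.3), against 1.18%, 5.59% and 2.67% in endothelial-like nuclei. Before thinning they were 72.8%, 85.9% and 71.8%, and 2.23%, 11.6% and 6.15% in endothelial-like nuclei. The interval of DMD overlapped that of WT, although the level was 1.68-fold higher. Thinned, Fhl2 had the highest share with WT at 70.7% (68.7 to 72.7), while BMD was at 62.0% (59.6 to 64.4) and DMD at 62.3% (59.6 to 65.0), and before thinning it was seen in 94.4%, 92.5% and 85.1%. In endothelial-like nuclei it was seen in 3.17%, 6.41% and 6.30%, thinned, and 5.76%, 13.02% and 11.3% before.

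The number of stretch genes seen in 1 nucleus was counted next. Thinning to 1000 UMIs drops nuclei with fewer, here and below. It kept 1929 of 2075 cardiomyocyte-like nuclei in WT, 1525 of 1605 in BMD and 1053 of 1278 in DMD. The smaller cluster of DMD had a median of 773 UMIs, so many of its nuclei were dropped. Among nuclei thinned to 1000 UMIs, 38.2% of 1929 in WT (36.0 to 40.4) held UMIs of 4 or more members. In BMD, 58.2% of 1525 did (55.7 to 60.7) and in DMD 52.3% of 1053 (49.3 to 55.4). No nucleus held more than 7 of the 9. In endothelial-like nuclei thinned alike, from 540 to 1005 per library, the shares were 0.185%, 0.216% and 0.0995%, from 1 or 2 nuclei each. Without the smaller cluster the cardiomyocyte-like shares were 37.9% (35.7 to 40.1), 57.2% (54.6 to 59.7) and 55.2% (52.1 to 58.4), so that the intervals of BMD and DMD overlapped. These intervals cover counting error within 1 library. Estimated free RNA also differed, at 3.57%, 6.40% and 9.11% of UMIs, and its part in the difference was not tested. The estimate takes all fibroblast, endothelial and macrophage marker UMIs in these nuclei as free RNA, so it also counts those from doublets.

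**Figure D3:**
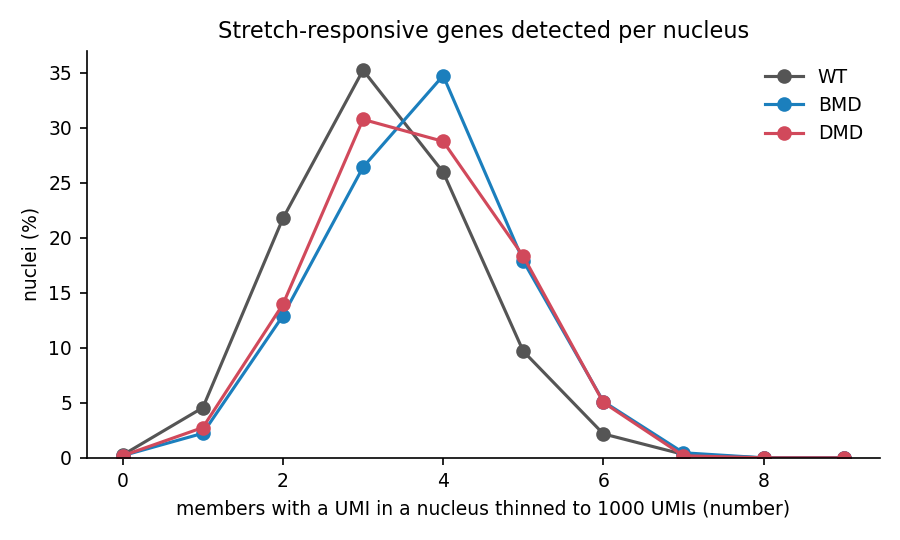
Number of stretch-responsive genes with a UMI in a nucleus, for cardiomyocyte-like nuclei thinned to 1000 UMIs. The x axis is the number of members and the y axis the percent of the nuclei of a library. The WT curve peaks at 3 members with 35.3% of nuclei and the DMD curve also at 3 with 30.8%, while the BMD curve peaks at 4 with 34.8%.

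Xirp2 UMIs were spread unevenly over nuclei. After thinning to 1000 UMIs, the richest 10% of nuclei held 55.5% of the Xirp2 UMIs of WT, 59.7% of those of BMD and 55.4% of those of DMD. For Nrap, with lower mean counts, the richest 10% held 42.8%, 39.2% and 41.4%, but for Csrp3 they held 57.9%, 52.9% and 45.3% and for Fhl1 54.3%, 46.7% and 42.4%. Of these 4 genes, Csrp3 was above Xirp2 by this share in WT. For Ankrd2, Ankrd23 and Xirp1 the share was 100%, since fewer than 10% of nuclei held a UMI of them, so it also depends on the mean. The variance over the mean was 9.27, 12.8 and 7.11 for Xirp2, and at most 3.61 for any other member. Single nuclei reached 69, 80 and 61 Xirp2 UMIs, beside means of 0.93, 2.72 and 1.48. Nuclei with many Xirp2 UMIs were present in WT too.

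In the 10% of nuclei richest in Xirp2, the other members were not all higher. Csrp3 was higher there by a log2 ratio of 1.43 for WT (1.17 to 1.68), 1.43 for BMD (1.19 to 1.67) and 0.64 for DMD (0.25 to 0.99). Ankrd23 was higher by 2.09 in BMD (1.25 to 2.85) and 2.40 in DMD (1.36 to 3.35), while in WT its 7 UMIs in the richest 10% gave an interval from -0.56 to 2.05. For DMD, the richest 10% held 15 Ankrd23 UMIs, while 1 thinned nucleus of that library alone held 9. Whether this nucleus was among the richest 10% was not tested. The counting interval treats UMIs as independent, so it does not cover such a nucleus. Ankrd1 was higher by 0.48, 0.32 and 0.45. Fhl2 was lower in each library, with log2 ratios of -0.41, -0.58 and -0.34 and intervals below 0. Of genes outside the 9, Nppa, which encodes atrial natriuretic peptide, was higher in these nuclei by 1.32, 1.08 and 1.07, and Ccn2, which encodes a matricellular growth factor, by 2.06, 1.71 and 1.42. Myh6, the fast myosin heavy chain of the rat ventricle, was lower there, with log2 ratios of -0.62, -2.07 and -0.86 for WT, BMD and DMD, and was chosen for mention after its values were seen. This 10% is a range of a continuous count, not a cell type. Its lowest nucleus had 2 Xirp2 UMIs in WT, a number that 117 nuclei outside it also had. The cut lay at 6 UMIs in BMD and 4 in DMD. As the nuclei of a library are 1 sample, these values describe nuclei and are no test. They include the smaller cluster and were not computed without it.

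**Figure D4:**
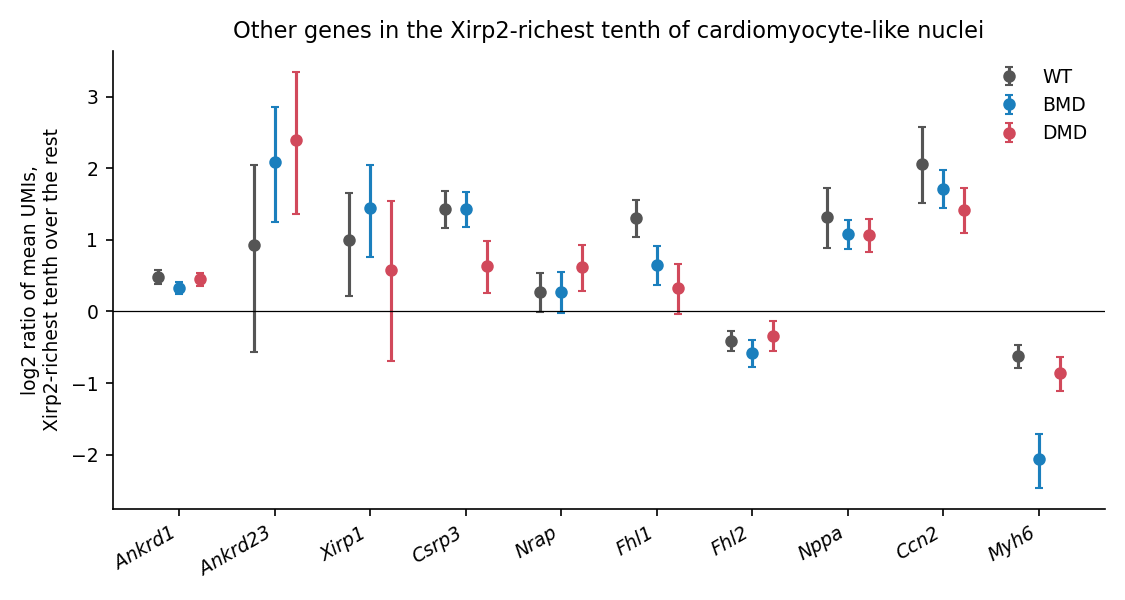
Genes in the 10% of cardiomyocyte-like nuclei with the most Xirp2 UMIs against the other nuclei of the library, thinned to 1000 UMIs. The y axis is the log2 ratio of mean UMIs per nucleus, colours are the libraries and bars are exact 95% counting intervals. Csrp3, Nppa and Ccn2 lie above 0 in each library and Fhl2 and Myh6 below 0.

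Nuclei with an Nppa UMI gave a like picture for Fhl2, but not for each member. Thinned to 1000 UMIs, they held more Xirp2 than the rest by a log2 ratio of 1.23 for WT, 0.76 for BMD and 0.81 for DMD, and less Fhl2, with ratios of -0.27, -0.26 and -0.19. For Csrp3 the ratio was 1.33 with WT (1.05 to 1.60), 0.62 with BMD (0.41 to 0.82) and 0.15 with DMD (-0.11 to 0.41). For Fhl1 it was 1.15 with WT (0.86 to 1.42), 0.10 with BMD (-0.10 to 0.30) and 0.11 with DMD (-0.12 to 0.34). In BMD, Csrp3 had 2654 CPM in the smaller cluster, of which Nppa is a leading gene, and 442 in the larger one. The ratios by Nppa were not computed without the smaller cluster. The median correlation between members over nuclei was 0.03 in WT, 0.03 in BMD and 0.02 in DMD over the 36 pairs. Most pairs included Ankrd2, Ankrd23 or Xirp1, which few nuclei held, and this alone can keep a correlation near 0. The median therefore does not show how the other members vary together. Pairs of those others ranged from -0.16 to 0.32 in WT, -0.12 to 0.23 in BMD and -0.09 to 0.31 in DMD. In WT the lowest was Ankrd1 with Fhl2 and the highest Xirp2 with Fhl1. The largest over all pairs, 0.48 between Xirp2 and Ankrd23 in DMD, rested on few nuclei. Only 9 DMD nuclei held 3 or more Ankrd23 UMIs before thinning.

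Outside cardiomyocytes, Fhl1 was the member most often above the level expected from free cardiomyocyte RNA. Each member's level in the 8 other named cell types was set beside the level that free RNA from cardiomyocytes would give, estimated from 5 cardiomyocyte genes (Myh6, Tnnt2, Tnni3, Mybpc3 and Ryr2) in the same nuclei. Of 24 sums of a cell type and library, Fhl1 lay above that level in 20. Csrp3 lay above it in 6 and Fhl2 in 5. Ankrd1 lay above it in 1, Xirp1 in 0, Nrap in 1 and Xirp2 in 1. The other sums of these 4 genes had the line within their counting interval or lay below it. Below it were 15 sums of Ankrd1 and 10 of Xirp2, against 0 of Xirp1 and Nrap. Whether the line stands too high for Ankrd1 and Xirp2 was not tested. Free RNA is shared by all nuclei of a library, so levels at or under this line were read as background. The line holds no free RNA from other cell types, and Fhl1 was also high in fibroblast-like nuclei. Fibroblast markers summed to 2148 CPM in WT macrophage-like nuclei and 2654 in T cell-like or B cell-like ones, beside 14720 in fibroblast-like ones. A sum above the line therefore does not by itself show expression in that cell type. The part of fibroblast RNA in the Fhl1 sums was not tested.

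Fibroblast-like nuclei held Fhl1 at 334 CPM for WT (318 to 351), 303 for BMD (284 to 324) and 265 for DMD (248 to 283), beside free-RNA levels of 8.87, 20.2 and 17.5 CPM. WT was highest there and DMD lowest. On the log2 scale BMD was at -0.14 (-0.26 to -0.02) and DMD at -0.33 (-0.45 to -0.22) against WT, both below 0, while in cardiomyocyte-like nuclei both were above 0. The difference between the cell types was not tested. In pericyte-like or smooth muscle-like nuclei the levels were 125, 180 and 240 CPM, with ratios of 0.52 (0.08 to 0.97) and 0.94 (0.54 to 1.35). Fibroblast markers summed to 2883, 2118 and 4003 CPM in these nuclei, and Scrublet called 10.7%, 6.94% and 13.3% of them doublets. The part of this in the ratios was not tested. In endothelial-like nuclei they were 139, 115 and 107 CPM. Without an endothelial-like cluster that also raised 7 fibroblast markers they were 90.9 (75.5 to 108), 106 (91.9 to 122) and 80.8 (68.8 to 94.3), so the order of WT and BMD turned there. Lymphatic-like nuclei had 277, 302 and 244 CPM, with intervals that overlap. Macrophage-like nuclei had 75.2, 128 and 131 CPM, close to free-RNA levels of 52.4, 97.1 and 85.7.

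Of the other Fhl2 sums, 15 were within counting error of the line and 4 below it. Xirp2 was above it in lymphatic-like nuclei of DMD, with 361 CPM beside 188. Csrp3 was above the free-RNA level in endothelial-like nuclei of each library, at 25.1 CPM in WT, 48.6 in BMD and 35.7 in DMD beside 12.4, 29.2 and 19.5. These are sums of 43, 98 and 89 UMIs. The line takes free RNA to have the makeup of cardiomyocyte-like nuclei. Csrp3 had 1865.5, 2654 and 780 CPM in the smaller cardiomyocyte-like cluster, against 334, 442 and 484 in the larger one. Whether free RNA is richer in Csrp3 than the line allows was not tested. Csrp3 was also above the line in fibroblast-like nuclei of BMD (28.5 CPM beside 20.1) and DMD (25.8 beside 13.9) and in T cell-like or B cell-like nuclei of WT (92.1 beside 58.9). The endothelial-like levels were far under those in cardiomyocyte-like nuclei. Ankrd2 and Ankrd23 lay above the line in 4 and 5 sums of at most 14 UMIs each. In monocyte-like or neutrophil-like nuclei, from 32 to 95 per library, the 5 reference genes reached 30.5% to 70.5% of their level in cardiomyocytes, so the counts above include these nuclei but no level is described for them. One of the 5 Fhl2 sums above the line was theirs, in DMD (1146 CPM beside 807).

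**Figure D5:**
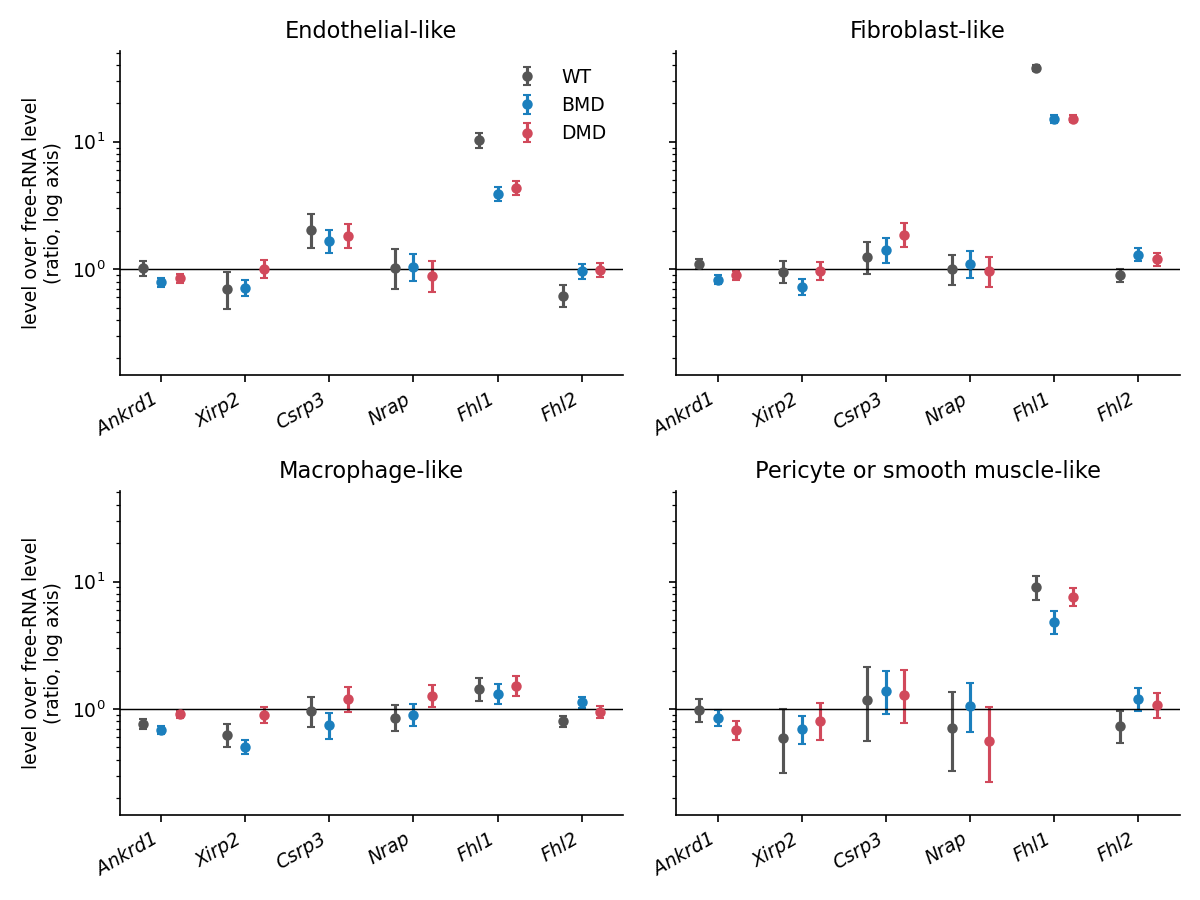
Level of 6 members in 4 cell types as a ratio to the level expected from free cardiomyocyte RNA, on a log axis. Points are the 3 libraries, bars are exact Poisson 95% intervals of the level, and the line at 1 marks that expected level. Fhl1 lies above the line in each cell type, while Ankrd1, Xirp2 and Nrap lie near or under it.

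Partners and regulators of these genes were described from lists chosen with results of these data known. Of 18 other stretch-linked genes, 9 were at least 1.5-fold higher in BMD and 8 in DMD, and 1, Ankrd10, was lower in both. For all genes the shares given above were 9.0% and 14.9% higher, and 9.45% and 9.10% lower, and they stand beside each list below as well. Without the smaller cluster the counts were 9 and 8 higher, and Ankrd10 was under the fold in DMD (-0.56). Their median log2 ratio was 0.59 in BMD and 0.42 in DMD. The study itself names Nppa and Nppb of this list from the same samples, so its direction is not independent evidence. The 3 genes highest over all lists were Acta1, the skeletal actin of the fetal heart, Nppa and Ccn2. Acta1 had 33.6 CPM in WT, 242 in BMD and 245 in DMD. Nppa had 171, 918 and 917 CPM, and Ccn2 81.9, 486 and 439 CPM. All 3 were far higher in both mutants than in WT. Nppa is among the leading genes of the smaller cluster, and without that cluster it had 150.3, 699 and 753 CPM.

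Of 12 partners of the Xin proteins and N-RAP, 3 were higher by the fold in BMD (Flnc, Tln1 and Zyx) and 4 in DMD (these and Klhl41), and none was lower. The median was 0.08 in BMD and 0.13 in DMD, beside -0.05 and 0.01 for all genes. Filamin C, talin and zyxin are adhesion and Z-disc proteins, and Flnc had 101, 219 and 177 CPM. Of 10 LIM partners, 3 were higher in each mutant (2 in BMD without the smaller cluster), and Itgb1, the beta-1 integrin, had 243, 466 and 534 CPM. Of 6 ankyrin repeat partners, Cryab alone was higher in each, with 471, 1062 and 711 CPM, or 423, 818 and 638 CPM without the smaller cluster. A share of 1 in 6 is near that of all genes. Desmin (Des) and calsequestrin (Casq2) stayed under the fold.

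Of 13 regulators, 1 was higher in each mutant, Piezo1, a stretch-gated channel, with 1.71, 2.81 and 7.84 CPM from 11, 19 and 32 UMIs. Its log2 interval in BMD, from -0.43 to 1.93, included 0, and without the smaller cluster DMD had 3.19 CPM and an interval from -0.09 to 2.81. A share of 1 in 13 is under that of all genes. By the same fold, 1 regulator was lower in BMD and 2 in DMD, against 9.45% and 9.10% of all genes. Mef2c was lower in both, with 650, 428 and 291 CPM, and log2 ratios of -0.60 (-0.67 to -0.53) and -1.16 (-1.25 to -1.07). It encodes a factor that binds the motif marked in the 2 Xin promoters. Whether Mef2c and the Xin genes are linked here was not tested. Yap1, the stretch-sensitive partner of TEAD factors, had 267, 202 and 168 CPM and passed the fold in DMD, with -0.67 (-0.80 to -0.54). Mef2c, Ankrd10 and Yap1 were the 3 lowest over all lists. Genes of these lists named here other than these, Acta1, Nppa and Ccn2 were chosen after their values were seen.

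Over the 27 sums of a named cell type and library, the pattern of Ankrd1 was most like that of Myoz2, Tnni3 and Myh7 among 9099 genes (Pearson r of 0.98 for each). Xirp2 was most like Ankrd1 (0.96), Nppb (0.95) and Tnni3 (0.94). Fhl2 was most like Mypn, Ryr2 and Smyd1 (0.98 each). Csrp3 was most like Myom2 (0.96), Ndrg4 (0.95) and Myl3 (0.95), and Nrap was most like Trim63 (0.98), AABR07052585.1 (0.98) and Trdn (0.97). Xirp1 was most like Eef1a2, Hadha and Supt20h (0.94 to 0.89). Fhl1 was most like Luc7l2, Meis2 and Scmh1 (0.88 to 0.86). The most alike genes for Ankrd23 were Nmrk2, Tmem179 and Cidea (0.89 to 0.88). For Ankrd2 they were Mroh7, Mmp11 and Fam222a (0.86 to 0.78). The highest Ankrd2 level of these sums, 12.7 CPM in Schwann-like nuclei of WT, came from 1 UMI. It lay above the 5.91 CPM of BMD cardiomyocyte-like nuclei, from 40 UMIs. The genes listed for Ankrd2 therefore rest on few UMIs and do not show which genes it resembles. The 27 sums share libraries and depth, so the values of r describe likeness only.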

How the data were processed

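Nuclei of the heart apex were measured with the 10x Genomics 3′ v3.1 kit per the labels, although the results section of the study names a 5′ kit. The authors deposited UMI counts per gene and barcode, not normalized, from Cell Ranger and, per the submitters' processing notes, build rn6. Matrix headers name version 6.0.1 for the file listed for WT, an aggregate of the 3 libraries, and version 4 for BMD and DMD, and whether introns were counted is not given in the sources used here. WT was read from the aggregate's WT barcodes, and BMD and DMD from their own files, of whose UMIs the aggregate keeps 76.1% and 92.9%. Whether WT was counted differently from the mutants was not tested.

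The barcodes with the most UMIs were kept, up to the nuclei the methods give (9964, 6810 and 7890). Clustering used Scanpy 1.11.5 (Leiden 0.5), without the members and mitochondrial genes. Nppa, Nppb, Tmem65, Myh6, Myh7, Ryr2, Gja1, Dmd, Xist and some Y-linked genes were left out too. A cluster was named from 3 or more markers that were 2-fold or more above all other nuclei. It stayed unnamed if its top 10 genes held more markers of another cell type. Clusters of 600 and 555 nuclei stayed unnamed and entered no cell type. No doublets were removed: Scrublet called 1.30%, 1.25% and 3.91% of cardiomyocyte-like nuclei. Other cell types had up to 32.6% (monocyte-like or neutrophil-like nuclei of DMD), and macrophage-like nuclei of DMD had 26.2%. Ratios used summed UMIs with 0.5 added to each sum, with Clopper-Pearson intervals, and Poisson intervals for levels, in SciPy 1.17.1. TMM factors came from edgeR 4.0.16. The functions were tested on simulated data. No test between genotypes was run. Ttn was not found by symbol in the files. Promoters came from RefSeq (GRCr8), which held entries for 6 of the 9 members. They were searched on both strands for CTAAAAATA, CATTCC and the CArG box. All members are named. Of the partner lists, the 3 highest and 3 lowest by the ratio nearer 0 are, with Nppa, and for each member the 3 most alike genes by log2(CPM + 5), with at least 100 UMIs. Members, lists and rules were chosen with earlier results of these data known. Alternatives covered nuclei, doublets, mitochondrial UMIs, clustering, free RNA, scaling, depth, cells, fold and minimum counts.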

Additional observations from a re-analysis of the deposited data

How the results depend on the processing

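The number of members at least 1.5-fold lower was 0 in both mutants under all 15 alternatives. The number higher was within 1.5 times the main value in 13 of 15 in each mutant. In BMD it was 3 in place of 5 with nuclei thinned to 1000 UMIs, where Ankrd2 had too few UMIs and Csrp3 fell under the fold, and 3 with a fold of 2. In DMD it was 0 in place of 4 with all nuclei of a library and 0 with a fold of 2. Under the fold fell also Csrp3 in BMD (0.52) and Xirp2 in DMD (0.53) with the mean of CPM over nuclei, Ankrd23 in DMD (0.57) with thinned nuclei, and Csrp3 in BMD (0.40) without the smaller cardiomyocyte-like cluster. The thinned values come from 1 random draw, and in a second draw Ankrd23 in DMD was above the fold. The median log2 ratio of the members in BMD was 0.52 with the mean of CPM over nuclei, 0.53 with thinned nuclei, 0.87 with all nuclei and 0.56 without the smaller cardiomyocyte-like cluster, an alternative chosen after seeing the data. In DMD it was 0.18 with all nuclei and 0.54 without that cluster. No called member changed sign under any of its 13 alternatives. Of the others, Xirp1 in DMD ranged from -0.34 to 0.02, Ankrd2 in DMD from -0.89 to 0.42 and Nrap in DMD from -0.10 to 0.33. Free RNA, as estimated and subtracted, came to 3.57%, 6.40% and 9.11% of UMIs, lowest for WT and highest for DMD. The estimate rests on markers of other cell types in cardiomyocyte-like nuclei, so it does not tell free RNA from doublets. Depth limits Ankrd2 and Ankrd23 most. With 1 library per genotype, the spread between animals is unknown. No paired analysis was possible because each genotype has 1 library.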
